A study of Rattus norvegicus with 14 samples.

Results

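The mitochondrial ribosomal proteins are described here across 14 arrays of rat soleus, the slow postural muscle of the calf. Their genes were taken by name: each gene whose single symbol on the array begins with Mrpl or Mrps, represented by the probe set with the highest mean signal. This gave 73 genes of 14217 with a single symbol, read by 97 probe sets. All 73 passed the filter on low signals that left 11062 genes for testing, and none lay at the floor on any array. The muscles came from 12 male Sprague Dawley rats, 1 array per muscle, measured as total RNA from whole soleus. The control group held 4 left muscles with no tenotomy named for them, numbered here in the order of deposit: replicate 1 is from rat 62, replicate 4 from rat 61, and replicates 2 and 3 from 2 further rats. The short-term group held 6 right muscles whose tendon had been cut (tenotomy, which takes the load off the muscle): 2 after 1 week (rats 12 and 13), 2 after 2 weeks (rats 25 and 27), 1 after 3 weeks (rat 32) and 1 after 4 weeks (rat 42). The long-term group held 4 right tenotomized muscles: 2 after 6 weeks (rats 61 and 62), 1 after 16 weeks and 1 after 22 weeks. The labels give no ages, genotype change or drug, and all groups share strain and sex. In rats 61 and 62 the control was the muscle opposite the tenotomized one. All controls were left and all tenotomized muscles right, so side and tenotomy cannot be told apart in any comparison with controls. The short-term group shared no rat with the others. Cohort of rats therefore cannot be told apart from tenotomy or its duration in comparisons with that group.

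Mitochondrial ribosomes translate the few proteins encoded by mitochondrial DNA, which are core subunits of the respiratory chain and ATP synthase. All of their proteins are encoded in the nucleus, made on cytosolic ribosomes and imported, while their ribosomal RNAs are transcribed inside the organelle. Some of the proteins descend from bacterial ribosomal proteins and others were added in the mitochondrial lineage. The soleus is rich in oxidative fibres and therefore in mitochondria. Of the 73 genes, 48 encode proteins of the large subunit, which forms peptide bonds, and 25 of the small subunit, which reads the messenger RNA. Mrps18a and Mrps30 are counted with the large subunit, where their proteins sit despite their names. A bacterial counterpart is known for 43 and the other 30 are specific to mitochondria.

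Unless given as deposited, the unit is an array signal on a linear scale after every array was shifted to the same median over the tested genes. Group values are geometric means. Such signals compare a gene between arrays, not 1 gene with another. The deposited array medians lay between 29.7 and 49.1, and pairs of arrays correlated between 0.85 and 0.94 with no identical pair. Of 8 skeletal muscle identity genes (Acta1, Ckm, Mb, Myh7, Tnnt1, Tnni1, Ttn and Des), 0 passed the test between short-term and control muscle. Their summed signal was 57033 to 73993 in controls, 54250 to 83619 in short-term and 64341 to 80158 in long-term muscle. Poly-A spike-ins, as deposited and not shifted, read 179 to 263 on control, 306 to 775 on short-term and 203 to 337 on long-term arrays. The Gapdh 3' to 5' ratio was 1.38 to 2.78, 1.16 to 1.61 and 1.38 to 2.78 in the same order. That of actin, the other sign of RNA quality, went the other way, with 1.47 to 2.37, 1.97 to 3.87 and 1.39 to 3.74. Nothing in the labels says whether muscles were processed together, so p-values measure the spread between these arrays.

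In short-term muscle the genes of the mitochondrial ribosomal proteins fell almost as a whole in RNA signal. Protein levels were not measured. The change was below 0 for 73 of 73 and passed the test for 70 of 73, or 95.9% (limma, Benjamini-Hochberg adjusted over 11062 genes, threshold 0.05), while 0 rose. Over all genes tested, 26.6% fell and 17.9% rose, and among the 5521 genes within the members' range of mean signal 39.3% fell. The median change was -0.81 on the log2 scale, from -1.34 to -0.17, which left the median gene of the list at 57.2% of its control signal. The median of all tested genes was itself shifted by -0.12 under this scaling, so that relative to it the members' median was -0.68, a 1.61-fold fall. For 63 of 73 every short-term array lay below every control array, against 19% of all genes. Under each of 6 ways of scaling the arrays 57 of 73 fell, against 16.7% of all genes. Whole muscle was measured, so fewer cells of a type and less RNA per cell cannot be told apart.

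Genes of both subunits were affected. In the large subunit 45 of 48 fell with a median of -0.81, and in the small subunit 25 of 25 fell with a median of -0.77. Genes of proteins with a bacterial counterpart fell in 41 of 43 cases (median -0.81) and those of mitochondria-specific proteins in 29 of 30 (median -0.80). The changes overlapped widely, from -1.32 to -0.17 in the large and from -1.34 to -0.31 in the small subunit, and no difference between the divisions was tested.

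**Figure D1:**
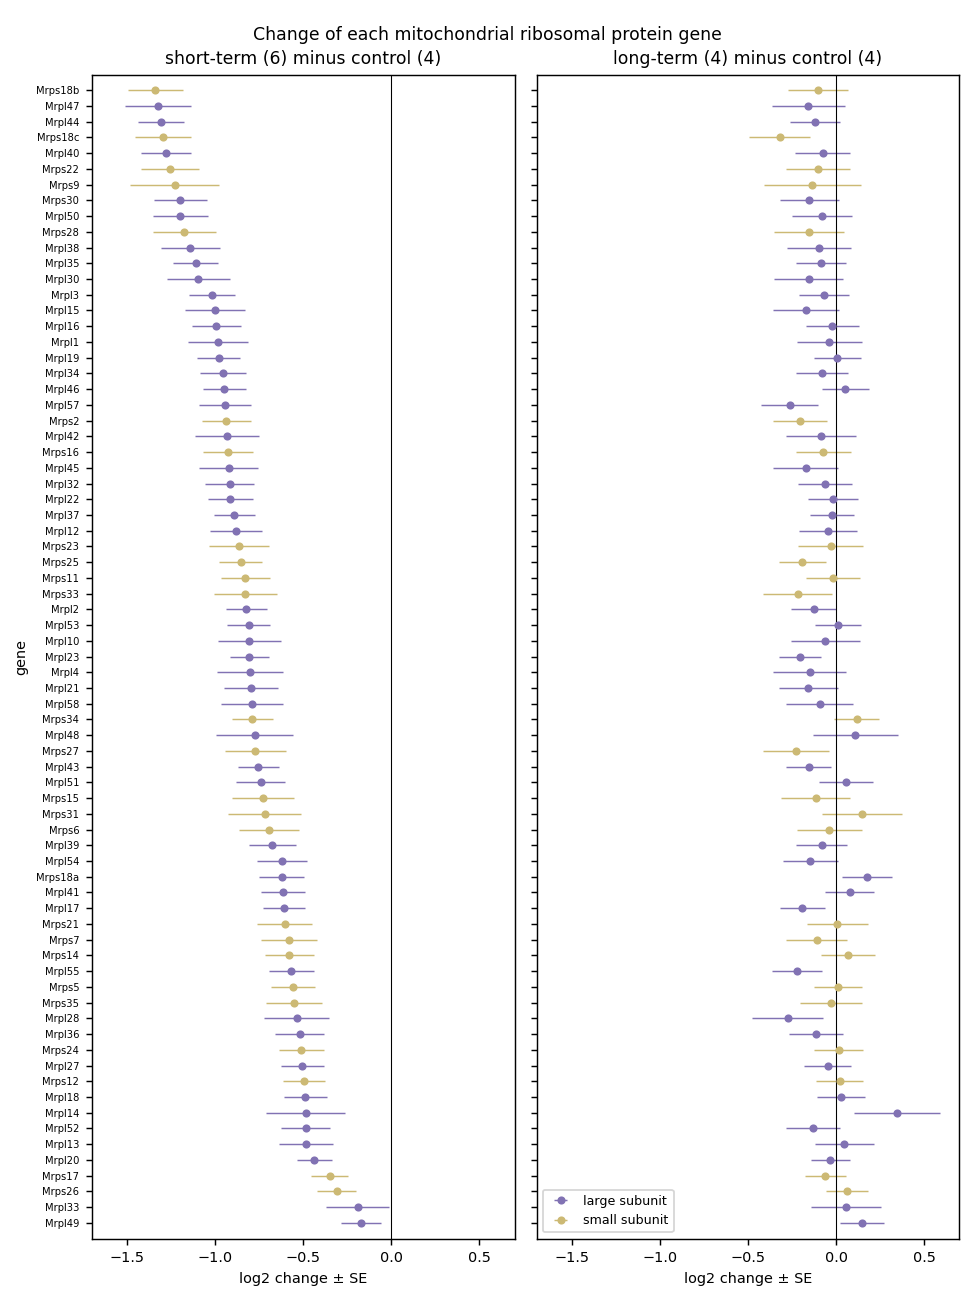
Log2 change (horizontal axis) with its standard error for each of the 73 genes (vertical axis), short-term minus control on the left (6 and 4 arrays) and long-term minus control on the right (4 and 4 arrays), large subunit in purple and small subunit in yellow. On the left all points lie between -1.34 and -0.17, and on the right they scatter around 0 with 53 below it and 20 above.

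Mrps18b, 1 of 3 vertebrate relatives of bacterial S18, had the largest fall. Its control signals were 1508, 1610, 1693 and 1276 in replicates 1 to 4. After tenotomy it read 508 and 706 at 1 week, 684 and 448 at 2 weeks, 780 at 3 weeks and 534 at 4 weeks. It then read 1350 and 1293 at 6 weeks, 1385 at 16 weeks and 1630 at 22 weeks. All short-term arrays were thus far below both other groups, and the long-term arrays overlapped the controls. The change was -1.34 ± 0.15 (SE, 6 against 4 arrays), a 2.53-fold fall (limma, adjusted p = 2.3e-05).

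Mrpl44, a large-subunit protein with a ribonuclease III-like fold, had a fall of similar size. Its 4 controls read 810, 965, 646 and 723, in the same order. The short-term signals ran from 262 to 344 with a median of 324. At 6 weeks it read 736 and 686, at 16 weeks 638 and at 22 weeks 818. The short-term arrays did not overlap either other group, and the change was -1.31 ± 0.13 (SE, limma adjusted p = 9.1e-06).

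The other genes with the largest falls came from both subunits. Mrpl47, the counterpart of bacterial L29, read 755 to 872 in controls and 218 to 488 in short-term muscle, a change of -1.32 ± 0.19. Mrpl40, a mitochondria-specific large-subunit protein, read 1037 to 1347 and 380 to 607 (-1.28 ± 0.14). In long-term muscle they read 654 to 782 and 964 to 1194, which overlaps the controls in both. Mrps9, the counterpart of bacterial S9, had the widest spread of this group, since the 2-week array of rat 27 read 189 while the others lay between 335 and 583. Its change was -1.23 ± 0.25. Mrps30, a large-subunit protein first named for programmed cell death, fell by 1.20 ± 0.15 on the log2 scale.

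The 3 relatives of bacterial S18 could be compared side by side. Mrps18b and Mrps18c, whose proteins occupy the small subunit, changed by -1.34 ± 0.15 and -1.30 ± 0.16, and Mrps18a of the large subunit by -0.62 ± 0.13 (limma adjusted p = 0.00136). Mrps18a read 822 to 1109 in controls and 503 to 720 in short-term muscle, without overlap. The difference between the genes was not tested. A dimmer probe set for Mrps18c showed -0.45 (adjusted p = 0.0567), so the size of its fall depends on the probe set.

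Mrps22, a mitochondria-specific small-subunit protein mutated in human mitochondrial disease, read 515 to 583 in controls, 161.5 to 296 in short-term and 454 to 645 in long-term muscle. Its change was -1.26 ± 0.16 (adjusted p = 5.2e-05). Its other probe set had a mean signal of 12.2 and failed the filter. With the mean over both probe sets the change was -0.53 and missed the threshold (adjusted p = 0.0679).

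To show what lies in front of the 3 genes with the largest falls and of Mrpl33, which did not pass the test, the 250 bases before the RefSeq start (GRCr8) are printed for Mrps18b (chr20:2842756-2843005, plus strand), Mrpl47 (chr2:117447362-117447611, minus), Mrpl44 (chr9:88554800-88555049, plus) and Mrpl33 (chr6:30553988-30554237, minus). Each is written 5' to 3' toward the gene, and capitals mark a match to 1 of 3 motifs searched on both strands: GCGC, any base and TGCGC of NRF1, CCGGAAG of the ETS family that includes GABP, and AAGATGGC of YY1.
Mrps18b: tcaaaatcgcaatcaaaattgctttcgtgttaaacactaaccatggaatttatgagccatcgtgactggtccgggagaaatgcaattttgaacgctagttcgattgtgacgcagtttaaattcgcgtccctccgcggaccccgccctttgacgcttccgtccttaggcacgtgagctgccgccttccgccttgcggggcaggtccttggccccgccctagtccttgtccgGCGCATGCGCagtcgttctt
Mrpl47: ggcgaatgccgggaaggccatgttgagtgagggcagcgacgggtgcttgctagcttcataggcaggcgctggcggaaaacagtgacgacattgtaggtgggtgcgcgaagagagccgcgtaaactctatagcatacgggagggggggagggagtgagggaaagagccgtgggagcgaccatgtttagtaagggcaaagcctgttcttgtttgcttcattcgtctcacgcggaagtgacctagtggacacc
Mrpl44: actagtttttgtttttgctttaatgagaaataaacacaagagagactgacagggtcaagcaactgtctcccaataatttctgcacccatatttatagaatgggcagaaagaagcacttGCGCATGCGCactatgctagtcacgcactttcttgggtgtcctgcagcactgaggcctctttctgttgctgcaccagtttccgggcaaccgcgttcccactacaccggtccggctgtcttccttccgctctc
Mrpl33: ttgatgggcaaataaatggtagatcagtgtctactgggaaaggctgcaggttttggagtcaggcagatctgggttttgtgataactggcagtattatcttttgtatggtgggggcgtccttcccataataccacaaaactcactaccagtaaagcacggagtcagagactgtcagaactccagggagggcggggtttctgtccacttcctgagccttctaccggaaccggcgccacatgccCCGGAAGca
Mrps18b holds an NRF1 match starting 20 bases before the start. It also has an ETS match that begins 3 bases before the start and runs past it, and a YY1 match at base 29 after it, neither of which is in capitals. Mrpl44 has its NRF1 match 132 bases before the start. Mrpl47 has no match to any of the 3, and neither do Mrpl40 and Mrps9, which also fell strongly. Mrps18c has an ETS match 139 bases before the start and Mrps30 a YY1 match at base 19 after it. Mrpl33 has an ETS match 9 bases before the start.

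Promoter windows of 300 bases (250 before to 50 after the start) were at hand for 59 of the 73 genes. The NRF1 letters occurred in 9 of 59 (15.3%, against 10.1% of tested genes), the ETS letters in 20 (33.9%, against 18%) and the YY1 letters in 14 (23.7%, against 5.84%). Matches of different motifs overlapped in 0 cases. Median changes in short-term muscle were -0.92 with and -0.80 without an NRF1 match, -0.77 and -0.83 for ETS, and -0.83 and -0.81 for YY1. These differences were not tested, and a match is no sign that the factor binds.

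Of the proteins with known places in the large subunit, 2 of the stalk and 3 of the exit tunnel were measured. The stalk recruits translation factors, and its member Mrpl12 read 2299, 2508, 2468 and 1853 in control replicates 1 to 4, 1008 to 1555 (median 1228) in short-term muscle, and 2048, 1884, 2219 and 2697 at 6, 6, 16 and 22 weeks. Its change was -0.88 ± 0.15 without overlap of the arrays. Mrpl10, which anchors the stalk, changed by -0.81 ± 0.18 (adjusted p = 0.00208), but with the mean over its probe sets the change was -0.52 and missed the threshold (adjusted p = 0.0726). Around the exit tunnel, through which new chains leave toward the inner membrane, Mrpl22 changed by -0.92 ± 0.13, Mrpl23 by -0.81 ± 0.11 and Mrpl45 by -0.92 ± 0.17. Mrpl45, which contacts the membrane, read 854 to 1331 in controls and 503 to 780 in short-term muscle. All 3 tunnel genes were below the control range on every short-term array.

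Other members have a role of their own. Mrpl58, a peptidyl-tRNA hydrolase that frees stalled chains, read 1089 to 1510 in controls and 536 to 1014 in short-term muscle (-0.79 ± 0.17, adjusted p = 0.00207). Mrpl41, also linked to apoptosis, changed by -0.61 ± 0.13. Mrps12, at the decoding centre, read 648 to 746 in controls and 409 to 608 in short-term muscle (-0.49 ± 0.12, adjusted p = 0.00386). Mrps27, an RNA-binding pentatricopeptide repeat protein, fell by 0.77 ± 0.17 on the log2 scale, but the control of rat 61 (157) lay below the highest short-term array (160.9). Mrpl11, Mrpl24 and Mrps36 were looked for and were not analysed here, since no probe set carries those symbols alone.

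**Figure D2:**
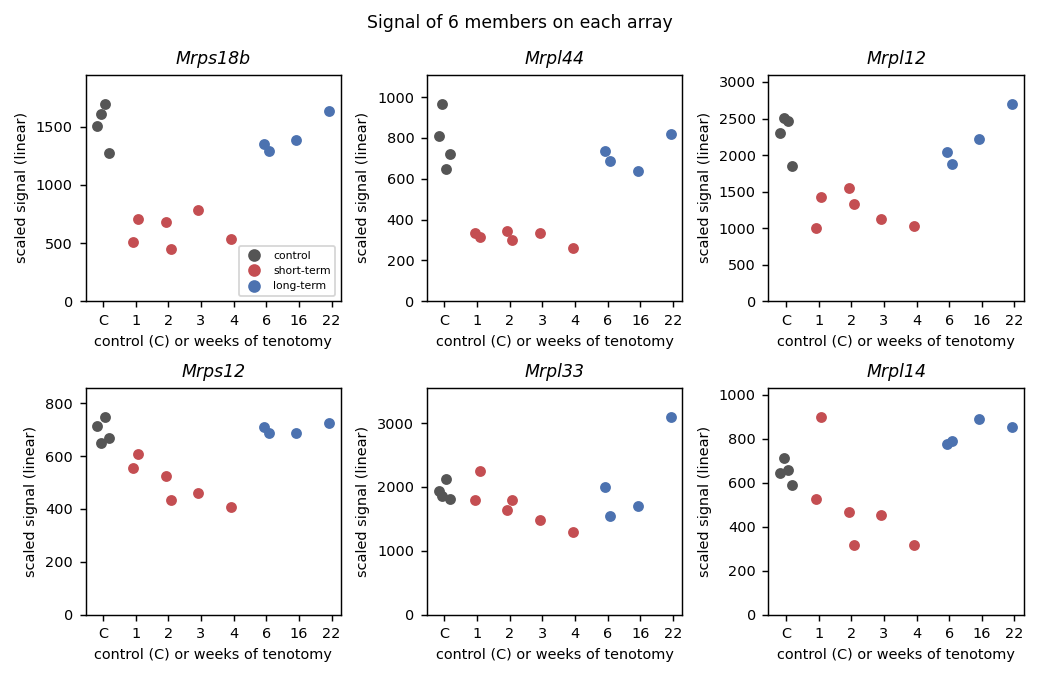
Scaled signal on a linear axis from 0 (vertical) on each array, for controls (C, grey) and by week of tenotomy (short-term red, long-term blue), each point 1 muscle, for Mrps18b, Mrpl44, Mrpl12, Mrps12, Mrpl33 and Mrpl14. The first 4 genes have every short-term point below the controls, while Mrpl33 overlaps throughout and Mrpl14 has a single short-term point, at 896, above all controls.

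The 3 genes that missed the test in short-term muscle did so in different ways. Mrpl33, the counterpart of bacterial L33, read 1929, 1851, 2129 and 1817 in controls and 1797, 2253, 1643, 1799, 1488 and 1299 in short-term muscle, ordered by week. The groups overlapped and the change was -0.19 (95% interval -0.57 to 0.19, adjusted p = 0.405). Under quantile normalization it was 0.11, so the data give it no settled direction. Mrpl14, the counterpart of bacterial L14, read 589 to 713 in controls. Its short-term signals were 525 and 896 at 1 week, 468 and 318 at 2 weeks, 452 at 3 weeks and 314 at 4 weeks. Only rat 13 at 1 week lay above the controls, and the change was -0.49 (adjusted p = 0.0868). Without that array it was -0.68 and passed the test (adjusted p = 0.00245), as it did with all arrays under 2 of the 6 scalings.

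Mrpl49, a mitochondria-specific protein, read 414 to 517 in controls and 348 to 491 in short-term muscle (-0.17, 95% interval -0.42 to 0.07, adjusted p = 0.241). Its 2 probe sets disagreed, as the dimmer changed by -0.60 (adjusted p = 0.00982). Among all the members, 18 have more than 1 probe set. Of 24 further probe sets 20 passed the filter, 19 of these had a change below 0 and 11 passed the test. The exception was a dim probe set of Mrps24, with a mean signal of 18.0 and a change of 0.82 that missed the threshold (adjusted p = 0.119), while the probe set used for Mrps24 gave -0.51. Processed or duplicated copies could share probes with their parents. RefSeq lists named pseudogenes for 21 members, of which 21 fell, and none for 52, of which 49 fell. No probe was compared with a pseudogene sequence, and nearly all members fell. These counts therefore cannot show whether copies share probes.

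The fall was present at each time from 1 to 4 weeks. Over the 73 genes the median difference from the control mean was -0.81 and -0.55 at 1 week (rats 12 and 13), -0.65 and -1.01 at 2 weeks (rats 25 and 27), -0.81 at 3 weeks and -1.03 at 4 weeks. Every one of the 73 lay below the control mean on 5 of these arrays, and 70 did on the array of rat 13, where Mrpl14, Mrpl33 and Mrpl49 lay above it. The arrays of 1 time point differed by as much as the time points did, so no order between weeks 1 and 4 can be read from them.

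In a fit with a mean for each time point, 46 of 73 fell at 1 week (median -0.70), against 14% of all genes. Without the array of rat 12 the count at 1 week was 9, and without that of rat 13 it was 37. At 2 weeks 65 of 73 fell (median -0.81), against 21.8% of all genes, and without the array of rat 27 the count was 41. Weeks 3 and 4 have 1 array each and were not tested. Mrps12, for example, changed by -0.26 at 1 week (adjusted p = 0.199) and by -0.55 at 2 weeks (adjusted p = 0.0112), and the difference between the weeks was not tested.

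**Figure D3:**
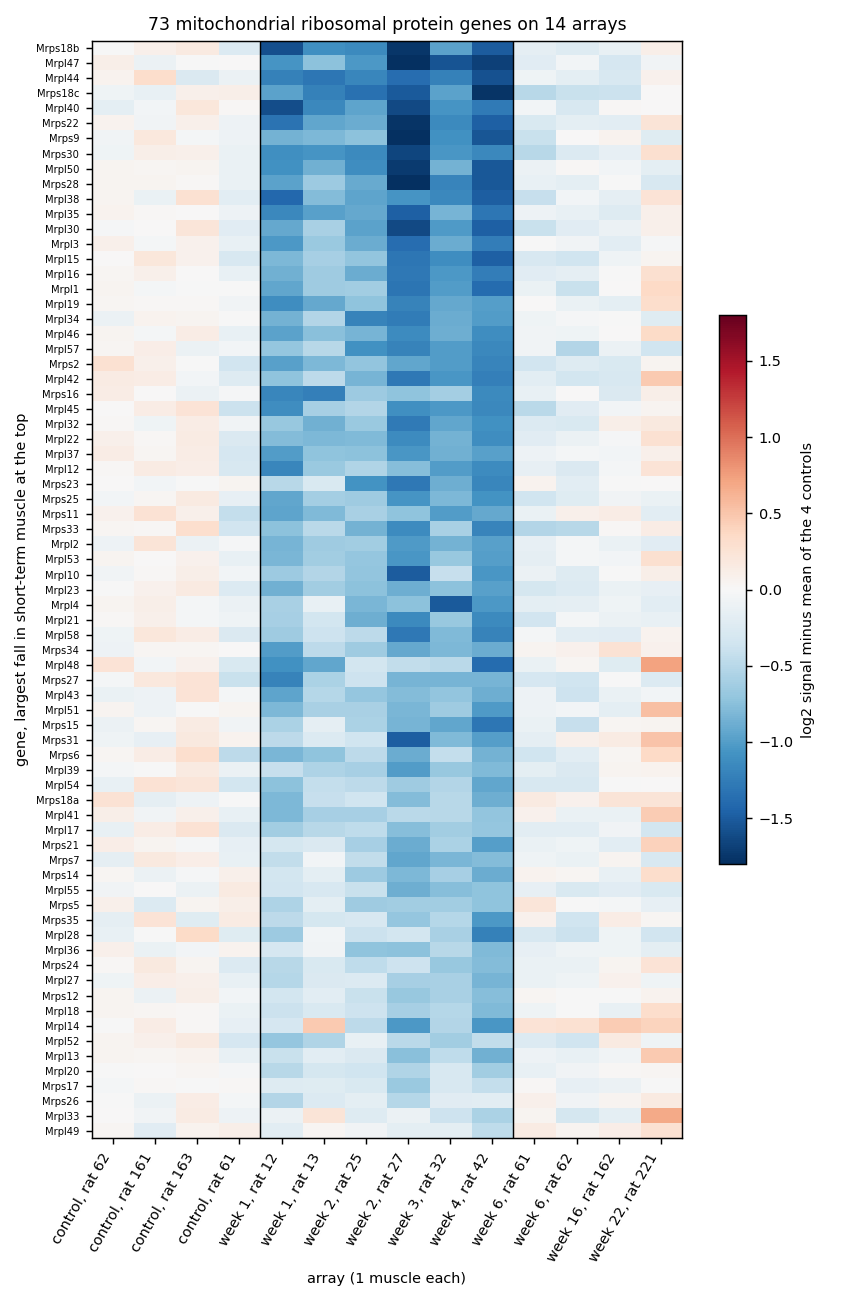
Log2 signal minus the mean of the 4 controls (colour, blue below and red above) for each of the 73 genes (rows, largest fall at the top) on each of the 14 arrays (columns, with vertical lines between control, short-term and long-term). The 6 short-term columns are blue in nearly every row, with medians from -0.55 to -1.03, and the long-term columns are pale, with medians from -0.15 to 0.07.

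From 6 weeks on the genes were back near control signals. Between short-term and long-term muscle 70 of 73 rose, against 26.2% of all genes, and 0 fell, against 17.4%. Among the 5521 genes within the members' range of mean signal 39.7% rose. Calls are limma's as above. The median rise was 0.75, or 0.62 relative to the median gene, which moved by 0.12. For 61 of 73 every long-term array lay above every short-term array, against 17.8% of all genes, and 50 rose under all 6 scalings, against 15.3%. This comparison uses the same 6 short-term arrays as the one with controls, so the 2 counts are not independent. In the large subunit 45 of 48 rose (median 0.80) and in the small subunit 25 of 25 (median 0.66).

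The largest rises were those of Mrps18b (1.24 ± 0.15), Mrpl40 (1.20 ± 0.14), Mrpl44 (1.19 ± 0.13), Mrpl47 (1.17 ± 0.19), Mrps22 (1.16 ± 0.16), Mrpl50 (1.12 ± 0.16), Mrps9 (1.10 ± 0.25) and Mrps30 (1.05 ± 0.15). Mrpl50, a mitochondria-specific large-subunit protein, read 900 to 1009 in controls, 296 to 542 in short-term and 868 to 988 in long-term muscle. The genes that missed the test were Mrpl28, Mrpl33 and Mrpl52. Mrpl28, the counterpart of bacterial L28, read 283 to 637 in short-term and 502 to 624 in long-term muscle (0.26, 95% interval -0.13 to 0.65, adjusted p = 0.264). Its fall from control (-0.54, adjusted p = 0.027) did not pass under 2 of the 6 scalings, nor without control replicate 2 (adjusted p = 0.0546) or 3 (adjusted p = 0.106). Mrpl33 changed by 0.25 (adjusted p = 0.274), and its 22-week array read 3090 against 1542 to 1994 on the other long-term arrays. Mrpl52, specific to mitochondria, changed by 0.35 (adjusted p = 0.0513).

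Long-term muscle did not differ detectably from control in any member. By limma 0 of 73 passed in either direction, as did 0% of all 11062 genes. At an unadjusted p under 0.05 the members numbered 0, against 2.21% of all genes, and the smallest member p was 0.0856 (Mrps18c). The median change was -0.08, or 94.9% of the control signal, with 53 of 73 below 0, against 51.6% of all genes. For 52 of 73 the 95% interval stayed within 0.5 of 0 on the log2 scale, and for 18 it reached -0.5. Outside the 52, even a difference of 0.5 is not settled by 4 arrays against 4. Smaller differences are not settled for the 52 either. Long-term arrays lay entirely above the controls for Mrps34 and Mrpl14 (0.94% of all genes did so) and entirely below for Mrpl55 (1.22% of all genes).

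Mrps34, a mitochondria-specific small-subunit protein, read 674 to 738 in controls and 744, 757, 859 and 756 in long-term muscle, a change of 0.12 that did not pass (unadjusted p = 0.368). Mrpl14 read 773, 788, 890 and 854, above the control range of 589 to 713, with a change of 0.34 (95% interval -0.17 to 0.86). Mrpl55, specific to the mitochondrial large subunit, read 707, 650, 682 and 650 against 727 to 877 in controls (-0.22, unadjusted p = 0.138). Neither these nor any other member passed the adjusted test, so the separation of their arrays is given only as it was measured.

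At 6 weeks both muscles came from rats whose opposite soleus was a control. The median difference from the control mean was -0.13 for rat 61 and -0.15 for rat 62. The fit with a mean per time point gave a median of -0.14, with 65 of 73 below 0 (50.7% of all genes), but 0 passed by limma and 3 had an unadjusted p under 0.05, no more than the 4.27% of all genes that did: Mrps18c (-0.45), Mrps30 (-0.37) and Mrps33 (-0.51), each with an adjusted p of 0.994. Both 6-week arrays lay below every control for 17 of 73 (23.3%), against 9.28% of all genes. They lay above every control for 2 (2.74%), against 8.2% of all genes. Set against its own opposite muscle, rat 61 had a median difference of -0.002 with 37 of 73 lower, and rat 62 had -0.18 with 62 lower. The control muscle of rat 61 itself was the lowest of the 4, with a median of -0.11 and 59 of 73 genes below the control mean. In 32 genes both rats were lower (28.4% of all genes were), in 6 both were higher (27.2% of all genes) and in 35 they went opposite ways. The 16-week and 22-week arrays had medians of -0.05 and 0.07.

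The rest of the mitochondrial translation machinery was read from lists of other genes. Beside their counts stand the 26.6% of all tested genes that fell and the 17.9% that rose in short-term muscle. Among genes within the members' range of mean signal 39.3% fell. The 5 genes of mitochondrial ribosomal proteins with other names fell in 5 of 5 cases in short-term muscle: Ptcd3 (-0.79), Gadd45gip1 (-0.76), Chchd1 (-0.64), Aurkaip1 (-0.38) and Dap3 (-0.35). Of 13 translation factors and helpers 13 fell (median -0.86), among them the release factor Mtrf1 (-1.27 ± 0.29) and the elongation factor Tsfm (-1.16 ± 0.12). Ribosome assembly and rRNA modification factors fell in 18 of 24 cases (median -0.65), led by Fastkd2, which acts on the large subunit (-1.76 ± 0.21), and Mettl15, a methyltransferase of the small-subunit rRNA (-1.29 ± 0.19). Of 16 mitochondrial tRNA synthetases and related enzymes 14 fell and 1 rose (median -0.88). Yars2 and Wars2, which charge the tRNAs for tyrosine and tryptophan, changed by -1.53 ± 0.21 and -1.23 ± 0.23, and Nars2, for asparagine, by 0.90 ± 0.28 (adjusted p = 0.0172).

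Upstream of the ribosome, 12 of 14 genes of mitochondrial DNA upkeep and transcription fell (median -0.81), against 26.6% of all tested genes. The elongation factor Tefm changed by -1.44 ± 0.21, the helicase Twnk by -1.0 ± 0.31 and the DNA packaging factor Tfam by -0.97 ± 0.19 (adjusted p = 9.7e-04). Among 10 nuclear regulators of mitochondrial genes 4 fell, a share near the background (26.6% of all tested genes and 39.3% of those in the members' range of signal): Ppargc1a, the coactivator PGC-1alpha (-2.10 ± 0.43, adjusted p = 0.00126), Myc (-1.65 ± 0.61), Esrra (-1.17 ± 0.25) and Nfe2l2 (-0.81 ± 0.18). The messenger RNAs of Nrf1 (-0.09, adjusted p = 0.692) and Gabpa (-0.18, adjusted p = 0.522), which recognise 2 of the motifs searched above, did not pass. In long-term against control muscle 0 genes of these lists passed. Of all 11062 tested genes 0 did, so this count tells nothing particular about the lists.

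The same counts were taken for the cytosolic ribosome and for the respiratory chain, whose mitochondrially encoded subunits these ribosomes make. Over all tested genes 26.6% fell and 17.9% rose. Of 43 cytosolic ribosomal protein genes 1 fell and 2 rose (median -0.03). Of 78 respiratory chain and ATP synthase genes encoded in the nucleus 55 fell (median -0.54). On each of the 6 short-term arrays the median of the mitochondrial ribosomal proteins was below that of the respiratory chain. The medians were, for example, -0.81 against -0.71 in rat 12 and -1.01 against -0.54 in rat 27. The lists were not tested against each other.

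**Figure D4:**
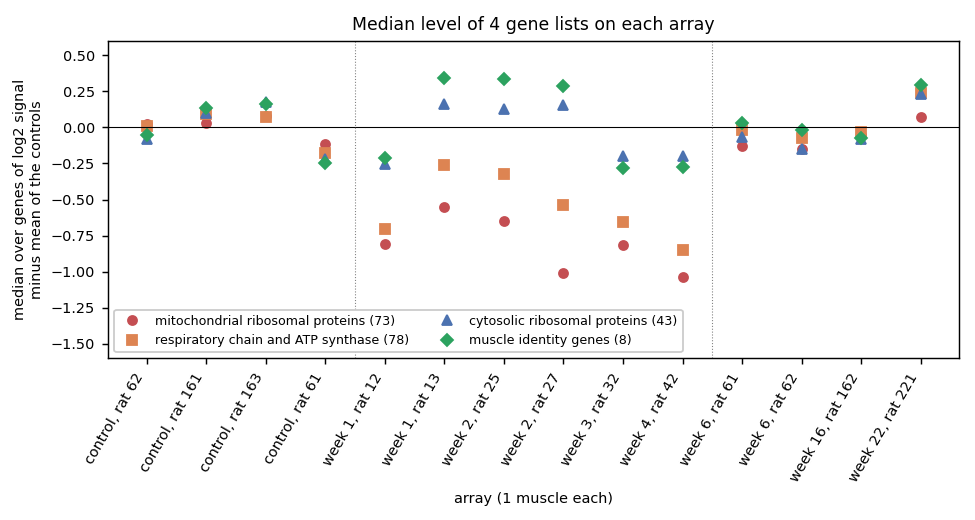
Median over the genes of a list of the log2 signal minus the control mean (vertical axis) on each of the 14 arrays (horizontal axis), for mitochondrial ribosomal proteins, respiratory chain and ATP synthase, cytosolic ribosomal proteins and muscle identity genes. The first list lies lowest on all 6 short-term arrays, between -0.55 and -1.03, and between -0.15 and 0.08 on controls and long-term arrays. The cytosolic and muscle lists spread about as widely on controls and long-term arrays as on short-term ones, with muscle identity genes at -0.24 in control replicate 4 and at 0.29 at 22 weeks. On short-term arrays muscle identity genes were at -0.22, -0.28 and -0.28 in rats 12, 32 and 42, whose arrays were brighter as deposited. In rats 13, 25 and 27, with dimmer arrays, they were at 0.34, 0.33 and 0.29. The cause was not tested.

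Markers of other cells moved with the same groups. For comparison, 17.9% of all tested genes rose and 26.6% fell in short-term muscle. In short-term muscle 8 of 8 macrophage genes rose, and their summed signal was 3958 to 8102 against 1356 to 2494 in controls and 1310 to 2541 in long-term muscle. Of 6 fibroblast genes 5 rose, with a summed signal of 23624 to 39594 against 8389 to 11213 in controls and 3584 to 13205 in long-term muscle. Of the others, 2 of 2 Schwann cell genes rose and 1 of 2 endothelial genes fell, while 0 of 3 adipocyte and 0 of 2 red cell genes passed. Detection calls were not at hand, so whether each marker was detected on every array was not tested. The part of these cells in the fall of the mitochondrial ribosomal protein genes was not tested. Nor was that of the differences in spike-ins and in the Gapdh and actin ratios. Relative to the median gene the members' median change was -0.68 within the 7 arrays that were brighter as deposited and -0.74 within the 7 dimmer ones. Each of these rests on 3 short-term and 2 control arrays, and the part of brightness was not tested.

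**Figure D5:**
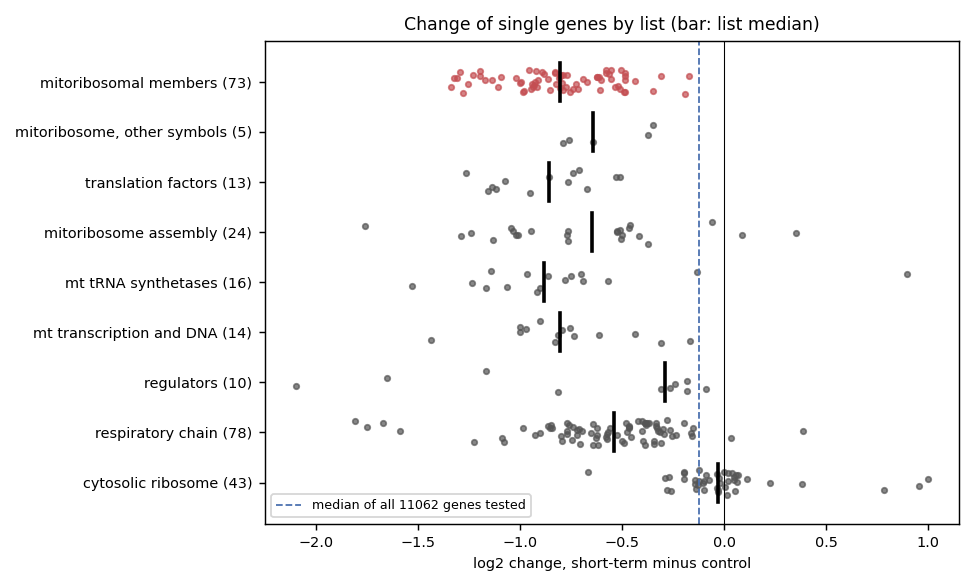
Log2 change from control to short-term muscle (horizontal axis) of every tested gene in 9 lists (vertical axis), each point 1 gene, black bars the list medians and the dashed line the median of all 11062 genes at -0.12. The median of the mitochondrial ribosomal proteins lies at -0.81 and that of the cytosolic ribosome at -0.03.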

How the data were processed

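The authors deposited MAS5 probe set values as a linear intensity, per the submitters' processing notes. The MAS5 version, scaling target and detection calls are not given in the sources used here. Of 31099 probe sets 20826 carried 1 gene symbol in the platform annotation, giving 14217 genes, each read from its brightest probe set by mean log2. Testing required a signal above the pooled 40th percentile (22.0) on at least 4 arrays, which 11062 genes met. Each array was shifted so that the median over these genes was common, and values under the pooled 25th percentile (9.69) were raised to it before log2. limma 3.58.1 in R 4.3.3 fitted a mean per group over all 14 arrays with an intensity trend, and a second fit a mean per time point, with p-values adjusted by Benjamini-Hochberg over all genes tested. The procedure was tested on simulated data with independent noise for each gene, which does not cover shifts shared by many genes of an array.

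Rats 61 and 62 each gave a control and a 6-week muscle. A repeat fit therefore took the rat as a random block. Deviations within a rat correlated at 0.49 in the group fit and 0.33 in the time point fit.

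Scaling moved the overall split. In short-term muscle 26.6% of genes fell and 17.9% rose, but 39.6% and 12.3% with a common median over all probe sets and 18.2% and 23% with a common trimmed mean. The number of arrays limits the precision.

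Genes were named by rule: up to 8 members with the largest changes past the threshold and no overlap of arrays, members with a known structural or second role, every member of a count of 5 or fewer, and the 2 largest changes per direction of other lists with Ppargc1a, Nrf1, Gabpa and Tfam. The members and lists were chosen with earlier results of these data known. All 73 symbols matched RefSeq, which also gave the promoters (GRCr8).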

Additional observations from a re-analysis of the deposited data

Results flagged for a closer look

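Within groups of 4 to 6 arrays, 81 sets of values were searched for an array that stood apart by most of the set's range. Each set held a single named gene or the members' median level. Such a gap was found in 5 of the 81 sets, which is near the rate of about 1 in 20 that chance alone gives. Mrpl14 read 896 at 1 week in rat 13, against 314 to 525 on the other short-term arrays. Mrps30 read 394 at 2 weeks in rat 27, against 556 to 601. Mrps22 read 645 at 22 weeks, against 454 to 484 on the other long-term arrays, and Mrps34 read 859 at 16 weeks, against 744 to 757. Mrpl50 read 900 in the control of rat 61, against 997 to 1009 in the other controls.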

How the results depend on the processing

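Each result was recomputed under 27 alternatives. The counts of members that fell in short-term muscle and rose again in long-term muscle stayed between 57 and 72 and between 51 and 73, and with 1 array left out between 68 and 71 and between 64 and 71. At 1 week the count ran from 9 to 54 with 1 array left out, and at 2 weeks from 41 to 67. The lowest values were those without rat 12 and without rat 27, where 1 array is left at that time point and is assumed to vary like the others. Against controls, long-term muscle and 6 weeks gave 0 calls under all alternatives. The members' median relative to the median gene in short-term muscle was -0.51 with quantile normalization and -0.78 with no filter. From short-term to long-term muscle it was 0.44 with quantile normalization, 0.73 with no filter and 0.54 with a stricter filter. The cause was not tested. With the rat as a replicate block the counts were 70, 71, 46 and 65 for short-term against control, long-term against short-term, 1 week and 2 weeks. Of the calls for named members the block changed that of Mrpl52 from short-term to long-term muscle (adjusted p = 0.0388 in limma). Of 1404 values of 26 named members 1356 kept their side of the threshold, 35 lost it, 13 gained it and 0 reversed a call. The rise of Mrpl55 was the least settled: it passed with adjusted p = 0.0409 and lost that under 14 of 27 alternatives. The split of arrays by brightness was added after seeing the data.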
